A study of Arabidopsis thaliana with 2 samples.

Results

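The 5 Arabidopsis thaliana genes described here, AT5G54370, AT3G19430, AT4G27400, AT5G60520 and AT1G54890, share an annotation as related to late embryogenesis abundant (LEA) proteins. They were chosen by that annotation and because 3 of them had been among the genes reading highest without iron, so their differences between the conditions are given as a description and with no test. Each was read by 1 probe set assigned to that gene alone, which makes 5 of the 22746 plant probe sets on the array and 5 of the 13513 with 1 gene. All 5 are protein-coding in the reference gene table. AT3G19430 has 2 RefSeq transcripts and the other genes have 1 each, and the genes span 1475 to 2458 bases.

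Pericycle cells, the outermost layer of the root's vascular cylinder, were sorted by green fluorescence from protoplasted seedling roots of ecotype Columbia carrying the reporter J2661. After 6 days on standard medium the seedlings were moved for 24 h to medium in which 0.3 mM ferrozine, an iron chelator, stood in place of iron, or to medium with iron, and they were 7 days old at harvest. RNA of the sorted cells was amplified and hybridised to a 1-colour Affymetrix array, and 1 column of values per condition was analysed, labelled replicate 1 in both and taken as 1 array each. Both groups carry the same reporter and passed through the same protoplasting and sorting, and the sorted cells are whatever J2661 marks in these roots.

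LEA proteins are small, mostly very hydrophilic proteins first described in maturing seeds, where they accumulate as the embryo dries. Many are also made in leaves and roots under drought, cold or salt, and they are known to protect membranes and proteins when water is scarce. Dehydrins are 1 of their families. The 5 genes carry the LEA name as related proteins, and none of them is among the 50 LEA genes listed for comparison here.

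The question is which way these genes differ in pericycle cells kept for 24 h without iron. AT5G54370, AT3G19430 and AT4G27400 read just over 3-fold higher without iron. AT5G60520 read slightly lower and passed the expression filter only through the array with iron. AT1G54890 was below the filter on both arrays, with a sign that changed with the scaling of the arrays. Values are the deposited intensities in arbitrary linear units. There is 1 column of values per condition, taken as 1 array, so no difference could be checked against a replicate here. No p-value was computed, and "higher" or "lower" refers to these arrays alone. On arrays of sorted cells, fewer cells expressing a gene and less of its RNA per cell cannot be told apart.

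AT5G54370 read 19.6 without iron and 6.20 with iron. The reading without iron was 3.17-fold higher, which is 1.66 on the log2 scale. The probe set stood at the 99.2nd percentile of plant probe sets without iron, against the 96.9th with iron, where brightness also depends on the probes and is no measure of transcript number. The authors' deposited table gave a q of 0.000417 for this gene.

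AT3G19430 read 4.61 without iron and 1.46 with iron. This is 3.16-fold higher without iron, or 1.66 on the log2 scale. It stood at the 90.9th percentile without iron, against the 75.1st with iron. The smallest q of the 5 genes in the authors' deposited table, 0.00024, was that of AT3G19430.

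AT4G27400 read 4.00 without iron and 1.27 with iron, which is 3.14-fold higher and a log2 difference of 1.65. It stood at the 88.9th percentile without iron, against the 70.0th with iron. The authors' deposited table gave a q of 0.00144. The highest and the lowest log2 difference of these 3 genes lay 0.011 apart, as ranks 6, 7 and 8 among all plant probe sets. The probe sets next to them in that order, AT1G50060 above and AT3G10020 below, had log2 differences of 1.75 and 1.64.

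AT5G60520 read 0.837 without iron and 0.986 with iron (log2 difference -0.24). The expression filter kept a probe set if its reading on at least 1 array reached the median of all plant values, 0.858, and AT5G60520 passed only through the array with iron. AT1G54890 read 0.535 without iron and 0.640 with iron (log2 difference -0.26), and was below the filter on both arrays. Among the 10874 plant probe sets below the filter, 93.8% read lower without iron, so the direction of AT1G54890 was that of most dim probe sets. The authors' deposited table gave q values of 0.133 for AT5G60520 and 0.121 for AT1G54890.

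**Figure D1:**
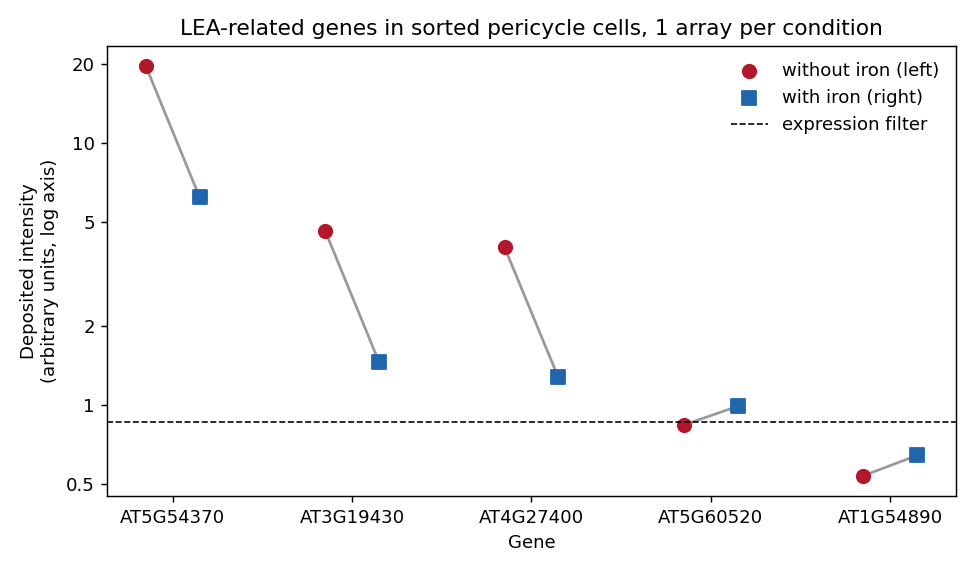
Deposited intensity (arbitrary units, log axis) of the 5 LEA-related genes, with the array without iron as a circle on the left and the array with iron as a square on the right of each pair, and the expression filter of 0.858 as a dashed line. AT5G54370, AT3G19430 and AT4G27400 read 3.14-fold to 3.17-fold higher without iron, and AT5G60520 and AT1G54890 lie near or below the filter.

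In all, 3 of the 5 genes read at least 2-fold higher without iron and none at least 2-fold lower. Of the 11872 plant probe sets past the filter, 246 (2.07%) reached 2-fold higher and 4 (0.0337%) reached 2-fold lower. The authors' deposited table gave 3 of the 5 genes a q under 0.05, and gave one to 44.5% of the probe sets past the filter. Since the genes were chosen with this contrast in view, these shares are the background and not a comparison. The median log2 difference over the 5 genes was 1.65, the value of AT4G27400, and follows from the choice of 3 of the 5. Over all probe sets past the filter the median was 0.37, also given as background.

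Bright probe sets as a whole read higher without iron and dim ones lower. Among the spike-in controls, which carry no plant transcript, all 9 hybridisation controls were higher without iron (median log2 difference 0.36) and none of 27 Bacillus controls was (median -0.42). The hybridisation controls read 1.97 to 51.3 without iron and 1.54 to 37.9 with iron, above the filter value. The Bacillus controls read 0.389 to 0.635 without iron and 0.531 to 0.727 with iron, below it. Each difference is therefore also given relative to like brightness, after subtraction of a smooth curve of the difference against brightness, fitted to all plant probe sets. With the curve subtracted, 13 probe sets past the filter (0.11%) reached 2-fold higher and 29 reached 2-fold lower. The curve at the brightness of the 3 higher genes was 0.61 for AT5G54370, 0.54 for AT3G19430 and 0.51 for AT4G27400 on the log2 scale.

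Relative to like brightness AT5G54370 remained 2.08-fold higher without iron, AT3G19430 2.17-fold and AT4G27400 2.21-fold. Their relative log2 differences were 1.06, 1.12 and 1.15, which is 4.27, 4.67 and 5.20 times the robust SD of the 500 probe sets of like brightness around each gene. That SD was 0.25, 0.24 and 0.22, and is a spread between genes, not between replicates. Within its window of 500, no probe set had a larger relative difference than AT5G54370 or AT3G19430, and 1 had a larger one than AT4G27400. Since the 3 genes were chosen as among the highest in this contrast, these multiples and positions restate the choice. The order of the 3 genes by relative difference was the reverse of their order as deposited, with gaps of at most 0.09 on the log2 scale.

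AT5G60520 lay below the trend, at -0.31 relative to like brightness with a local SD of 0.16, and 32 of the 500 probe sets around it lay lower still. AT1G54890 lay on the trend, at 0.04 with a local SD of 0.07. The difference of AT1G54890 as deposited and its relative difference have opposite signs, and no direction is drawn for it.

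**Figure D2:**
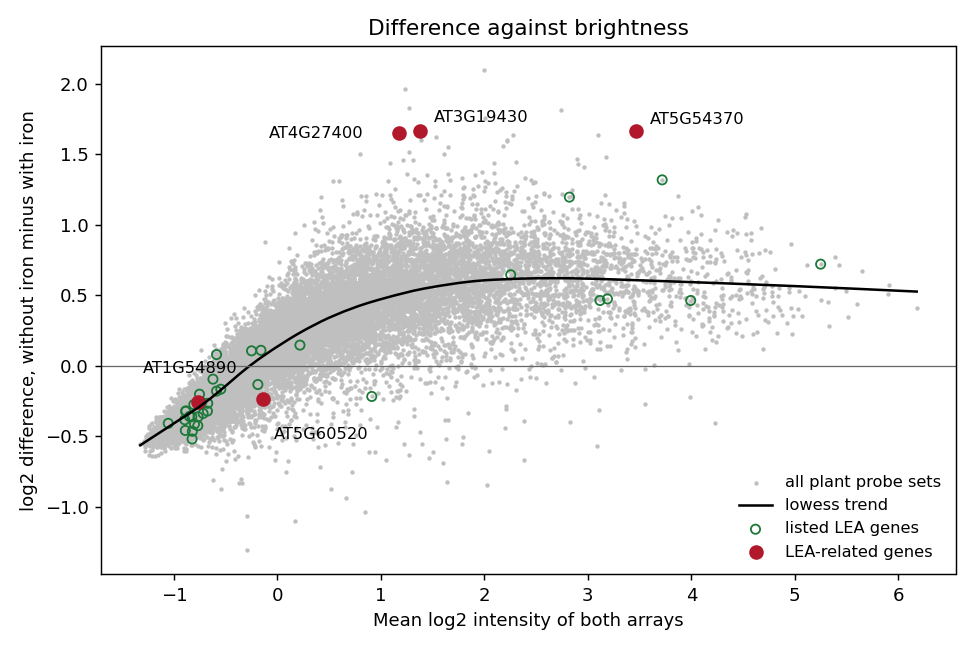
Log2 difference, without iron minus with iron, against the mean log2 intensity of both arrays for all plant probe sets (grey points), with the lowess trend as a black line, the LEA-related genes as filled red circles and the listed LEA genes as open green circles. AT5G54370, AT3G19430 and AT4G27400 lie 1.06 to 1.15 above the trend, AT5G60520 lies at -0.31 from it and AT1G54890 lies on it.

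How the arrays are scaled to each other changed the size of the differences and, for AT1G54890, the sign. AT5G54370 was 2.46-fold higher without iron when the median difference of probe sets past the filter was set to 0, and 2.09-fold after quantile normalization of the pair. With a fitted offset and scale factor taken out of the pair, AT5G54370 was 1.88-fold higher, below the 2-fold threshold, while AT3G19430 and AT4G27400 were 2.05-fold and 2.08-fold higher. Over these 4 scalings the 3 genes ranked between 5 and 14 among the probe sets past the filter. AT5G60520 read lower without iron under each of them, between -0.60 and -0.26 on the log2 scale. As AT5G60520 passed the filter only through the array with iron, its sign comes with its inclusion and no direction is drawn for it.

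**Figure D3:**
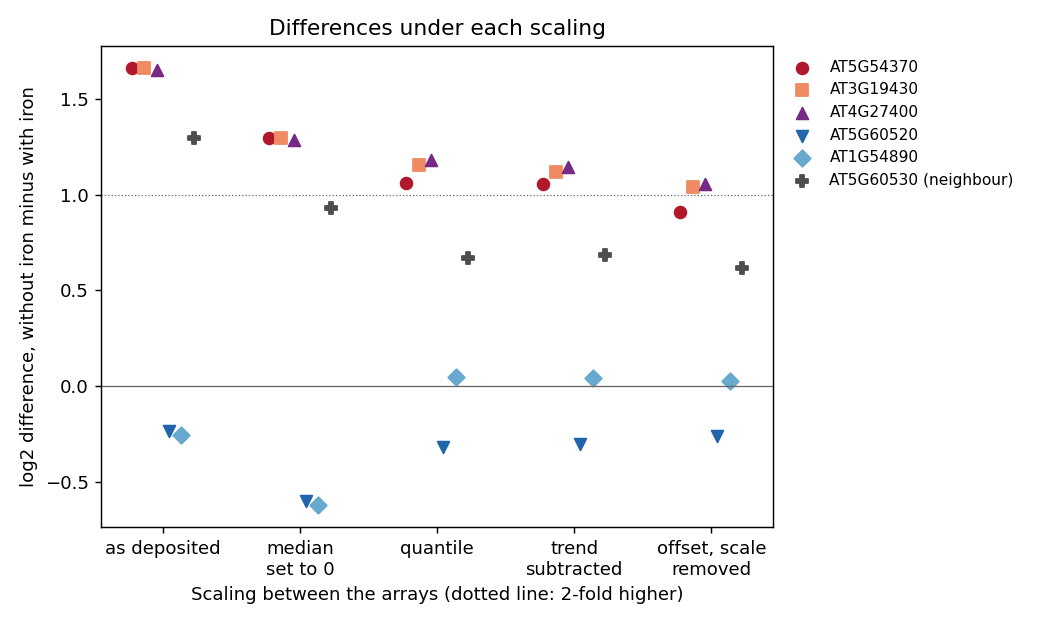
Log2 difference, without iron minus with iron, of the 5 LEA-related genes and of AT5G60530, the gene next to AT5G60520, as deposited and under 4 other scalings of the arrays, with 1 symbol per gene and a dotted line at 2-fold higher. AT5G54370, AT3G19430 and AT4G27400 stay between 0.91 and 1.30 under the other scalings, and AT1G54890 moves to between 0.02 and 0.04 in 3 of them.

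The chromosomal neighbours of the 5 genes were read where they had a probe set of their own, as was so for 3 of the 10 nearest annotated genes. AT5G60530, the gene directly after AT5G60520, read 6.73 without iron and 2.74 with iron, 2.45-fold higher without iron and rank 49 among all plant probe sets. Relative to like brightness it was 1.61-fold higher (log2 0.68, local SD 0.24). The authors' deposited table gave it a q of 0.00516. Whether AT5G60530 shares the LEA-related annotation was not examined here, and it is in no count of the 5 genes. The reading of AT5G60520 was too near the filter to set its direction against that of this neighbour. AT3G19440, next to AT3G19430, read 0.677 without iron and 0.745 with iron. AT1G54870, next to AT1G54890, read 0.470 without iron and 0.632 with iron, and both of these neighbours were below the filter. The nearest genes on both sides of AT5G54370 and on 1 side of AT4G27400 encode tRNAs.

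Genes with readings most like each member's were found by distance in the plane of log2 values of the 2 arrays, a likeness over 2 samples that says little beyond level and difference. CML37, a calmodulin-like protein gene, lay nearest to AT3G19430 at a distance of 0.05, reading 4.55 without iron and 1.502 with iron. AT3G53960 lay at 0.19 from AT3G19430 and at 0.18 from AT4G27400, for which it was the nearest, reading 4.54 without iron and 1.28 with iron. AT3G05640 was the third gene for AT3G19430, and AT2G38600 and the cytochrome P450 gene CYP71B28 followed AT3G53960 for AT4G27400. AT4G27400 and AT3G19430 lay 0.29 apart, each among the 7 probe sets nearest to the other.

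AT5G54370 had no near counterpart. Its nearest were EXLB1, an expansin-like gene, at 0.41, the dehydrin gene LTI30 at 0.44 and AT1G06760 at 0.47. All 3 differed less between the arrays than AT5G54370 (log2 differences of 1.13, 1.32 and 1.06). Since AT5G54370 was chosen as among the highest in this contrast, these distances and smaller differences partly restate the choice. At the dim end AT5G60520 had 67 single-gene probe sets within a distance of 0.1, the nearest being AT5G24320, AT2G27740 and AT3G22540. AT1G54890 had 1350 within 0.1, the nearest being AT1G37000, AT5G45240 and the pseudogene AT1G42705, so its readings were those of a large number of dim probe sets.

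Genes of the LEA protein family proper were read for comparison from a list of 50, of which 34 had a probe set and 12 passed the filter. As deposited, 10 of the 12 read higher and 2 lower without iron, beside 89.9% higher among all probe sets past the filter. LEA4-5, 1 of the 2 lower, passed only through the array with iron (0.838 without, 0.918 with). AT4G38410, 1 of the 10 higher, passed only through the array without iron (0.872 without, 0.810 with). The signs of LEA4-5 and AT4G38410 as deposited were therefore set by the filter. With the trend subtracted 6 lay above 0 and 6 below, and those above 0 were 6, 7 and 4 of the 12 after quantile normalization, with the median difference set to 0 and with the offset and scale factor removed. At least 2-fold higher were 2 of the 12, LTI30 and AT3G02480, beside the 2.07% over all. The median log2 difference of the 12 was 0.46, against 0.37 over all past the filter. Relative to like brightness it was -0.03, against 0.01. Over all 34 measured genes the median was -0.24 as deposited and -0.02 relative to like brightness.

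LTI30, a dehydrin known for its induction by low temperature, read 20.8 without iron and 8.33 with iron, 2.49-fold higher. Relative to like brightness LTI30 was 1.64-fold higher, the only listed gene past 1.5-fold in that direction, beside 1.09% of all probe sets past the filter. The listed gene AT3G02480 read 10.7 without iron and 4.67 with iron, 2.29-fold higher as deposited. Relative to like brightness it was 1.49-fold higher. The authors' deposited table gave q values of 0.000564 for LTI30 and 0.000327 for AT3G02480. Both genes therefore read higher without iron as deposited. The 3 LEA-related genes were chosen as among the highest in this contrast, so their larger differences are no comparison with these 2.

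COR47, a cold-regulated dehydrin and the brightest of the listed probe sets, read 48.8 without iron and 29.6 with iron. Its log2 difference was 0.72 as deposited. It was 0.16 relative to like brightness and -0.06 with the offset and scale factor removed. DI21, named for its induction by drought, read 5.97 without iron and 3.82 with iron (0.65 as deposited, 0.03 relative to like brightness). It was at -0.02 with the offset and scale factor removed. AT2G23120 and AT2G44060, the second also called LEA26, differed by 0.47 and 0.46 on the log2 scale as deposited. Relative to like brightness they were at -0.14 and -0.15. AT2G46140, also called LEA27 and singled out after its values were seen, read 1.74 without iron and 2.03 with iron. It was at -0.67 relative to like brightness, the only listed gene at least 1.5-fold lower, beside 1.48% of all probe sets past the filter.

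The other 22 measured genes of the list, many of them seed genes, were below the filter on both arrays. They read 0.418 to 0.684 without iron and 0.554 to 0.725 with iron, and 21 of the 22 were lower without iron, beside the 93.8% of all dim probe sets.

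**Figure D4:**
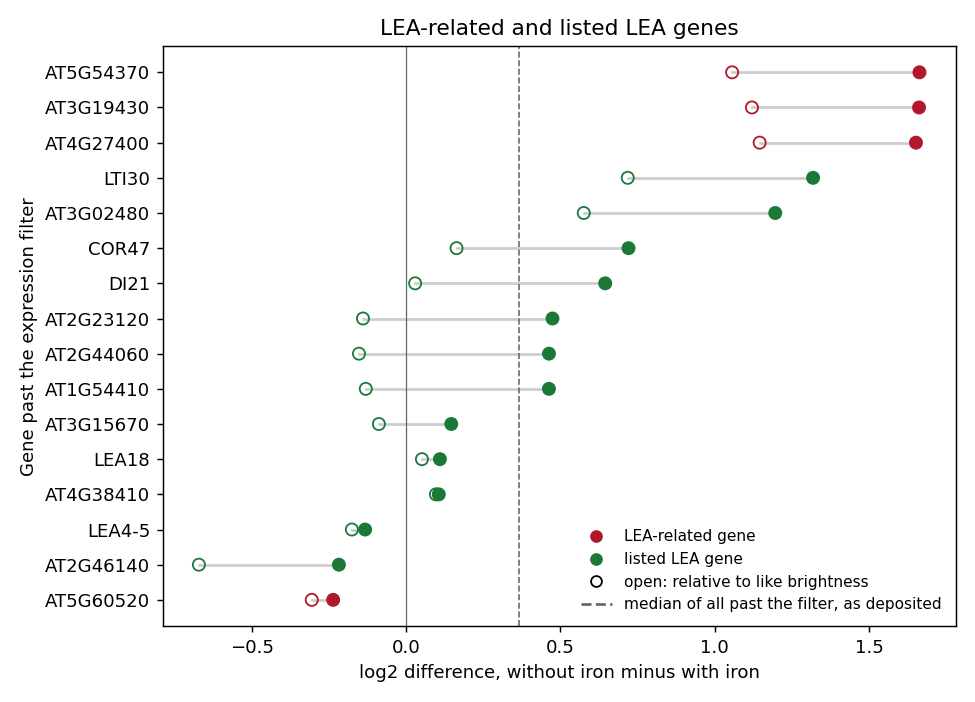
Log2 difference, without iron minus with iron, of the 4 LEA-related genes (red) and 12 listed LEA genes (green) past the expression filter, as deposited (filled circles) and relative to like brightness (open circles), with the median of all probe sets past the filter, 0.37, as a dashed line. AT5G54370, AT3G19430 and AT4G27400 have the highest values of both kinds among these 16 genes, and LTI30 and AT3G02480 follow. AT5G54370, AT3G19430 and AT4G27400 were chosen as among the highest in this contrast, so this order is no comparison with the listed genes.

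Markers of the root's cell types were few on this array as named here. LHW, 1 of 2 measured of 8 pericycle and stele markers, read 5.66 without iron and 3.82 with iron (log2 difference 0.57, -0.05 relative to like brightness), and LBD29 was below the filter on both arrays. The root hair and epidermis markers EXPA7 and EXPA18, 2 of 11, read 0.820 and 0.802 without iron and 1.06 and 0.993 with iron, summing to 1.62 without iron and 2.06 with iron. Both passed the filter only through the array with iron, and relative to like brightness they were at -0.47 and -0.36 (local SD 0.14 and 0.16). The 3 measured of 4 cortex markers and AGL42, the 1 measured of 6 root cap and stem cell niche markers, were below the filter on both arrays. GSO1, 1 of 14 endodermis markers, read 1.44 without iron and 1.46 with iron, and was at -0.37 relative to like brightness (local SD 0.19). OPS, 1 of 10 phloem markers, read 0.866 without iron and 0.768 with iron, and was at 0.19 relative to like brightness (local SD 0.13). It passed the filter only through the array without iron. None of 10 xylem markers was measured. The measured markers are few, and several lie near or below the filter. The part of cell makeup in the differences of AT5G54370, AT3G19430 and AT4G27400 was not tested.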

How the data were processed

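Per the labels' protocols, RNA of sorted cells was amplified in successive rounds, labelled with biotin and hybridised to a 1-colour Affymetrix array. The authors deposited 1 column of intensity per condition, with background correction, scaling and summarisation not given in the sources used here. For each probe set the authors deposited a q-value, whose test and arrays are not stated. The labels' protocols speak of 3 biological replicates, and those other than replicate 1 were not analysed here. The number of arrays limits the precision.

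There were 22801 probe sets, including 55 controls. The platform's probe table, with symbols brought up to date from RefSeq genes (TAIR10.1) by gene ID, gave 13513 probe sets 1 gene (13436 matched by ID), 503 several and 8785 none, and those with several or none are not named. Differences are log2 without iron minus log2 with iron, with no pseudocount. Like brightness was taken from a lowess curve (fraction 0.2, statsmodels 0.14.6, Python 3.11.15) and a robust SD over 500 probe sets. The lowess fit and the fit of an offset and scale factor were tested on simulated data. The lowess simulation used the curve and local spread of these arrays, with changes placed only among brighter probe sets. The filter and the other scalings were not simulated. The members and gene lists were chosen with earlier results of these data known. The LEA list was compiled from general knowledge of the family, and the 15 genes that the reference table names as LEA or dehydrin were all in it. Named genes were the members, the 3 nearest to each in the plane of both arrays, the measured chromosomal neighbours, the 6 listed LEA genes past the filter with the largest differences and the brightest, and the brightest marker per cell type. AT2G46140, LBD29, EXPA18, AT1G50060 and AT3G10020 fall outside this rule and were named after their values were seen. Sequences of the genes, their promoters and proteins were not used here.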

Additional observations from a re-analysis of the deposited data

How the results depend on the processing

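No paired analysis was possible because each condition has 1 column of values, and no replicate could be left out. The median log2 difference over the 5 LEA-related genes, 1.65 as deposited, was 1.06 after quantile normalization, 1.29 with the median difference set to 0, 1.06 with the lowess curve subtracted, 0.91 with the offset and scale factor removed and 1.14 with a pseudocount of 1. The 3 genes at least 2-fold higher stayed 3 under each scaling, filter and pseudocount run, except with the offset and scale factor removed, where they were 2. In the order above, 0.126%, 0.253%, 0.11%, 0.059% and 0.573% of all probe sets past the filter reached 2-fold higher. The share was 3.68% with the filter at the 75th percentile and 1.08% with no filter. With the pseudocount AT5G54370, AT3G19430 and AT4G27400 ranked 3, 19 and 23. As these genes were chosen as among the highest, the counts restate the choice. The listed LEA genes at least 2-fold higher, 2 as deposited, were 0 under all 4 other scalings. AT1G54890 turned to 0.044, 0.043 and 0.024 under quantile normalization, the lowess curve and the offset and scale factor. In the same order AT2G23120 turned to -0.16, -0.14 and -0.25 and AT2G44060 to -0.17, -0.15 and -0.25, and with the offset and scale factor removed COR47 and DI21 turned to -0.061 and -0.017. Other lowess fractions (0.1 and 0.4), or brightness taken from the array with iron alone, gave a median relative difference of the 5 genes of 1.01 to 1.07, beside 1.06. Lowering the fold threshold to 1.5 left the count at 3, beside 24.1% of the probe sets past the filter. The search for sequence relatives was not run, because no protein sequences were used. Readings near the lower end of the scale, such as those of AT5G60520 and AT1G54890, depend on the unstated background correction.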
